A study of Homo sapiens with 26 samples.

Results

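Thyroglobulin (TG), synemin (SYNM), cadherin 6 (CDH6), PHACTR2 and CWC27 are 5 of the 26485 genes in the deposited tables of human KELLY neuroblastoma cells. They were selected on the levels measured in cells carrying an empty vector without any hairpin, where their 3 doxycycline libraries and 3 DMSO libraries did not overlap. That condition alone held for 2108 of the 14905 genes tested in culture (14.1%), and the 5 had the largest fold differences among the 14 genes (0.0939%) that also passed the test in that contrast (adjusted p under 0.05). Doxycycline, added to switch on the hairpin, is present in the treated arm of every line, so the 5 genes address which RNA differences accompany the drug when no hairpin is there to be induced. Because the empty vector contrast chose them, its values are given below as a description and without a test. All 5 passed the filter on low counts in culture and in xenografts.

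KELLY is an established human neuroblastoma line with amplification of MYCN. In culture the cells carried the doxycycline-inducible lentiviral vector with a GFP marker, either empty (EV) or with a short hairpin against RUNX1T1, named sh4 or shAMB. Each of these 3 lines received doxycycline or, as control, the solvent DMSO for 72 h, with 3 libraries per group. The xenografts were KELLY tumours in mice, 4 labelled as control, wild type and on control food, and 4 labelled as RUNX1T1 KO and given doxycycline food. Per the paper the xenografted cells carried the hairpin that its methods base on an Ambion siRNA sequence. The name shAMB may stand for that hairpin, so the tumours may not be a setting apart from shAMB, but no label states it. The hosts were immunodeficient NOD SCID gamma mice. No empty vector xenografts were analysed here, so that in the tumours drug and hairpin cannot be told apart. Each line is a single transduced population, and nothing in the labels says whether the libraries of a group came from separate cultures, so p-values measure only the spread between these libraries. The culture columns were headed Neg and Pos and were taken as DMSO for Neg and doxycycline for Pos, a reading of those 2 headings that every culture direction depends on.

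Total expected counts ran from 35115908 to 54736731 per culture library and from 47346057 to 62378057 per xenograft library. Levels are given as CPM, counts relative to the scaled library total, as mean ± SD over the libraries of a group. Differences are log2 fold changes with their standard errors (SE) from edgeR's quasi-likelihood test, with Benjamini-Hochberg adjusted p-values over all genes of a comparison. The words changed, rose and fell are used where the adjusted p was under 0.05. Culture and xenograft libraries were scaled and fitted separately. All 11 markers of sympathetic neuroblastoma examined, HAND2 and MYCN among them, were present in every group, with summed levels of 4716 to 11460 CPM, while human macrophage and endothelial markers summed to at most 2.65 and 2.34 CPM in any library. The targeted transcript RUNX1T1 lay between 30.1 and 44.1 CPM in culture and between 24.3 and 43.1 CPM in xenografts. Its log2 fold change with doxycycline was -0.16 in EV, -0.11 in sh4 (adjusted p = 0.117) and 0.06 in shAMB (adjusted p = 0.378), and between xenograft KO and control it was -0.23 (adjusted p = 0.229), so groups are referred to by their labels only. In bulk RNA, fewer cells of a kind and less RNA per cell cannot be told apart.

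Gene spans are those of the GENCODE annotation on GRCh38. TG spans chromosome 8, 132866958 to 133134903, and SYNM spans chromosome 15, 99098217 to 99135593. CDH6 and CWC27 are both on chromosome 5, at 31193686 to 31329146 and at 64766368 to 65102412, and PHACTR2 is on chromosome 6, at 143536845 to 143831185. All 5 genes are on the plus strand. Whether counting used the strand is not stated. For SYNM, 27.8% of exon bases were overlapped by antisense genes, the long non-coding SYNM-AS1 and SYNM-AS2, so reads of the pair cannot be told apart if it did not. The exons of CWC27 overlapped no exon of another gene. CDH6 shared 8.91% and PHACTR2 shared 2.60% of exon bases with a gene on the same strand.

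The 5 genes have unrelated functions. TG encodes the large secreted protein on which thyroid hormone is made, and is known as a product of thyroid follicular cells. SYNM encodes synemin, an intermediate filament protein that links filaments of vimentin or desmin to the dystrophin complex and to adhesion sites. CDH6 encodes a type II classical cadherin, a calcium-dependent adhesion molecule active in kidney and neural development. PHACTR2 belongs to a family of proteins that bind both protein phosphatase 1 and actin. CWC27 is a cyclophilin-type protein of the spliceosome. Doxycycline, a tetracycline, is known in addition to its use as an inducer for blocking protein synthesis on mitochondrial ribosomes.

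RefSeq promoter windows of GRCh38.p14, from 250 bases before to 50 bases after a start site, were available for 3 of the 5 genes. The CWC27 window is shown because CWC27 and SREK1IP1, a gene that also passed the test in the EV contrast, have RefSeq start sites there. These point in opposite directions, 227 bases apart. Capitals mark the bases between the start sites of SREK1IP1 and CWC27. The SYNM window is shown because SYNM had the largest increase of the 5 genes in any group, and capitals there mark every match to CCAAT or GGGCGG on either strand. The windows lie at chr5:64768668-64768967 and chr15:99104830-99105129, both read on the plus strand. Both lie inside the GENCODE spans of their genes, which begin further upstream. In GENCODE the span of CWC27 also overlaps SREK1IP1, without shared exon bases.
CWC27: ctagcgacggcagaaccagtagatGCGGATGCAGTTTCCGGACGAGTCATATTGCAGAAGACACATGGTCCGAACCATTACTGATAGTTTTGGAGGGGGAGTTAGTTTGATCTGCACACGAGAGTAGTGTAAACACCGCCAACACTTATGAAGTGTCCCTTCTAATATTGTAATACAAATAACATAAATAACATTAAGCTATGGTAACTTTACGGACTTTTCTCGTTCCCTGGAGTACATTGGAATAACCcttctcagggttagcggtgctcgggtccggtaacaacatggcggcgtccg
SYNM: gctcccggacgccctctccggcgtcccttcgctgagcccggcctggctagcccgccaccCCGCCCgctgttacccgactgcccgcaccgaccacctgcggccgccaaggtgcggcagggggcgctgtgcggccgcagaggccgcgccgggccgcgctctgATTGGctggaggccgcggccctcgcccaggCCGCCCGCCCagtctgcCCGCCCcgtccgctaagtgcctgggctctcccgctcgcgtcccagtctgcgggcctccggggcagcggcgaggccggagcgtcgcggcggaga

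The windows differed in base composition and in the motifs searched. GC content was 46.0% for CWC27 and 79.0% for SYNM, against a median of 58.7% over 35116 windows, of which 22.6% and 96.3% had a lower GC content. SYNM held 4 matches to GGGCGG, which 45.0% of windows contain at least once, and 1 to CCAAT, which 34.6% contain. CWC27 held no GGGCGG and 1 CCAAT, and downstream of its start it held 1 match to ATGGCGGC, present in 3.0% of windows. Neither window held the E-box CACGTG, found in 7.26% of windows, or TATAAA, found in 11.5%. All motifs were searched on both strands, and overlapping matches were counted separately. A match is a description of the letters only.

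In EV cells SYNM and TG were higher and CDH6, PHACTR2 and CWC27 were lower with doxycycline. The fitted EV log2 fold changes were 0.89 for TG, 0.85 for SYNM, -0.93 for CDH6, -0.78 for PHACTR2 and -0.74 for CWC27, which corresponds to 1.85-fold and 1.80-fold higher and 1.91-fold, 1.72-fold and 1.67-fold lower levels. These values chose the genes. The ratio of the nearest EV libraries across the gap was 1.60 for SYNM, 1.58 for TG, 1.55 for CDH6, 1.53 for CWC27 and 1.39 for PHACTR2. The 9 other genes that passed the test in EV had smaller folds, the nearest being EHHADH at -0.63, SLC18B1 at -0.62 and SLITRK5 at -0.61. The count of 14 genes fell to 7 without EV DMSO replicate 1, to 8 without any 1 of the EV doxycycline libraries, and to 6 when the EV libraries were fitted alone. It rose to 57 when trends with GC content and gene length were removed, a setting chosen after seeing the data.

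**Figure D1:**
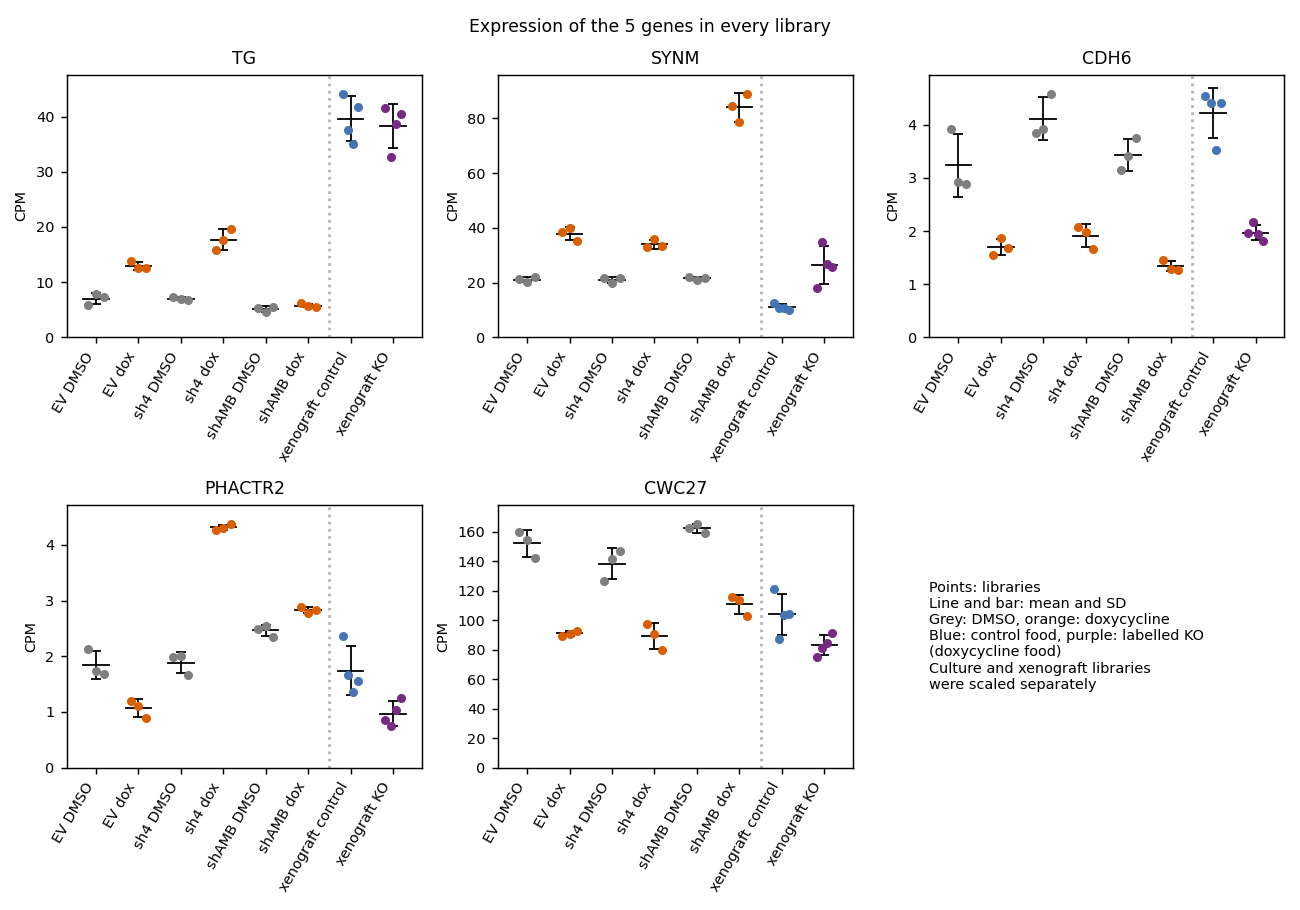
Level in CPM (vertical axis, from 0) of TG, SYNM, CDH6, PHACTR2 and CWC27 in each of the 8 groups (horizontal axis), with points for libraries, black lines for group means and bars for SD. SYNM is highest in shAMB doxycycline libraries (78.6 to 88.9 CPM), PHACTR2 is highest in sh4 doxycycline libraries (4.27 to 4.37 CPM), and CDH6 and CWC27 are lower with doxycycline in all 3 lines.

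The genes sit at very different levels. On the length-scaled TPM, CWC27 had 158 TPM in EV DMSO cells, above 93.4% of the genes tested. SYNM had 5.83 TPM (above 36.1%), TG 1.66 TPM (above 21.2%), CDH6 0.763 TPM (above 14.2%) and PHACTR2 0.397 TPM (above 9.28%). PHACTR2 rested on 32 to 221 expected counts per culture library and CDH6 on 55 to 200, whereas CWC27 had 3262 to 7196.

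TG followed doxycycline in EV and sh4 cells and not in shAMB cells or tumours. With DMSO its level in EV libraries was 5.89, 7.88 and 7.26 CPM, and with doxycycline it was 13.8, 12.5 and 12.5 CPM. In sh4 cells the DMSO libraries had 7.23, 7.02 and 6.73 CPM and the doxycycline libraries 15.8, 17.6 and 19.6 CPM. Every sh4 doxycycline library thus lay above every EV doxycycline library, and TG rose in sh4 cells by 1.34 on the log2 scale (SE 0.111, adjusted p = 1.3e-07, edgeR), from 6.99 ± 0.248 to 17.7 ± 1.92 CPM (SD, n = 3 each).

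In shAMB cells TG stood at 5.37, 4.52 and 5.54 CPM with DMSO and at 6.14, 5.65 and 5.47 CPM with doxycycline, and the groups overlapped. The log2 fold change was 0.16 (SE 0.115, 95% confidence interval -0.08 to 0.41, adjusted p = 0.230, edgeR). This value depended on the processing, since it was -0.25 (adjusted p = 0.0263) with GC and length trends removed and 0.32 (adjusted p = 0.0216, limma) on log2(TPM + 0.1). Ordered by mean, TG levels in culture ran from shAMB DMSO (5.14 CPM) through shAMB doxycycline (5.75), sh4 DMSO (6.99), EV DMSO (7.01) and EV doxycycline (13.0) to sh4 doxycycline (17.7). Within that order the ranges of the shAMB pair overlapped, as did those of sh4 DMSO and EV DMSO.

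In tumours TG had 44.1, 37.7, 35.0 and 41.7 CPM in control and 41.5, 32.6, 38.7 and 40.4 CPM in KO libraries, with a log2 fold change of -0.05 (SE 0.109, 95% confidence interval -0.29 to 0.19, adjusted p = 0.756, edgeR). All of these lay above the highest culture library, 19.6 CPM, but the tables were scaled separately. On the TPM scale the xenograft means of 2.28 and 2.22 lay within the culture range of 1.07 to 5.10 TPM. The TPM scales differed too, as CWC27 had 104 CPM and 26.3 TPM in control tumours against 152 CPM and 158 TPM in EV DMSO cells. Levels of TG in tumours and culture can therefore not be compared from these values. TG RNA was measured in libraries that held almost no other thyroid transcripts. The 6 thyroid follicular markers summed to at most 0.496 CPM in any culture library, with PAX8 and NKX2-1 at 0 counts in every culture group. In xenografts the sums were 1.47 to 3.45 CPM in control and 4.24 to 6.59 CPM in KO libraries, with PAX8 and NKX2-1 at 0 in all KO libraries.

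Related genes were examined in 5 lists, one for each gene. In EV 0 of the 88 listed genes tested passed edgeR's test or DESeq2, and 4 (4.55%) had an unadjusted p under 0.05, against 5.9% of all genes. Of 10 tested genes of thyroid hormone synthesis, transport and action, 3 changed in sh4 (1 higher, 2 lower), against 40.9% of all genes, and 7 in shAMB (5 higher, 2 lower), against 66% of all genes. In sh4 the protease CTSB fell by 0.27 on the log2 scale. In shAMB the activating deiodinase DIO2 rose by 1.55 and CTSB by 0.66, while the transporter SLC16A10 fell by 1.00. In xenografts 8 of 13 changed (6 higher, 2 lower), against 41.1% of all genes, with the hormone receptor THRB higher by 2.17, DIO2 by 1.59 and the thyrotropin receptor TSHR by 1.28. The median of the list was 0.03 (EV), 0.02 (sh4), 0.67 (shAMB) and 0.88 (xenografts), beside 0.01, -0.0046, 0.10 and 0.02 over all genes.

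SLA, which encodes a Src-like adaptor protein, lies inside TG on the opposite strand and shares no exon bases with it. SLA had 1.25, 1.05 and 0.922 CPM in EV DMSO and 1.65, 1.81 and 1.88 CPM in EV doxycycline libraries, a log2 fold change of 0.72 that did not pass the test (adjusted p = 0.149, edgeR). It rose in sh4 cells by 1.19 (adjusted p = 3.5e-06), in shAMB cells by 1.79 (adjusted p = 2.5e-08) and in KO xenografts by 1.19 (adjusted p = 0.00175). SLA and TG were therefore both higher with doxycycline in sh4 cells, whereas in shAMB cells and in KO xenografts SLA rose and TG did not pass the test. The protein-coding neighbours outside TG, PHF20L1 and NDRG1, had EV log2 fold changes of -0.05 and 0.10.

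**Figure D2:**
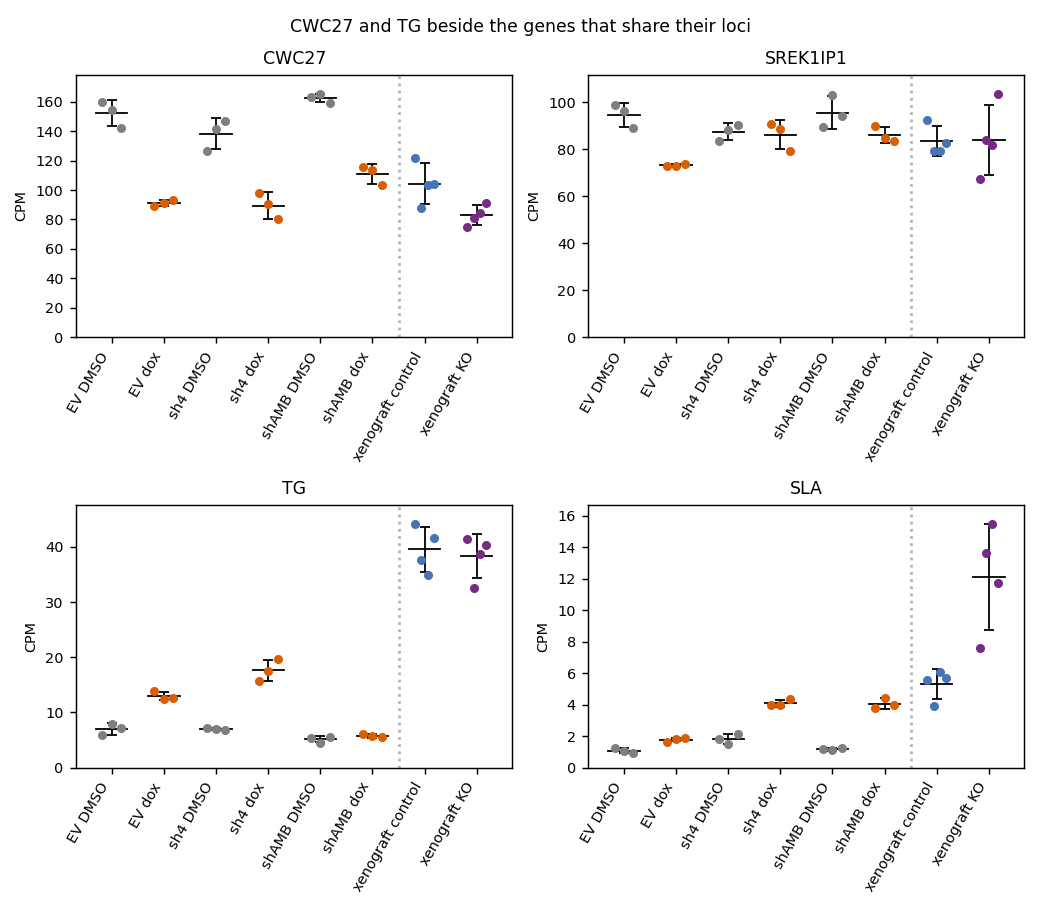
Level in CPM (vertical axes, from 0) of CWC27, SREK1IP1, TG and SLA in each library of the 8 groups. Black lines and bars give mean and SD. The RefSeq start sites of CWC27 and SREK1IP1 lie 227 bases apart, and SLA lies within TG. With doxycycline CWC27 is lower in all 3 lines and SREK1IP1 is clear of its DMSO libraries in EV alone among the lines, and in shAMB SLA is higher while the TG libraries overlap.

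SYNM was higher with doxycycline in all 3 lines and in KO tumours, with its highest level in shAMB. Its DMSO levels were alike in the lines, with 21.1, 20.2 and 22.0 CPM in EV, 21.7, 19.8 and 21.6 CPM in sh4, and 22.1, 20.9 and 21.7 CPM in shAMB. With doxycycline it had 38.5, 39.9 and 35.3 CPM in EV and 32.8, 36.0 and 33.4 CPM in sh4, ranges that overlapped, and 84.4, 78.6 and 88.9 CPM in shAMB, above both. SYNM rose in sh4 by 0.70 (SE 0.0637, adjusted p = 3.5e-07, edgeR) and in shAMB by 1.96 (SE 0.0649, adjusted p = 1.4e-12), or 1.62-fold and 3.89-fold.

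In xenografts SYNM had 12.5, 10.6, 10.8 and 10.2 CPM in control and 17.9, 34.9, 26.7 and 25.6 CPM in KO libraries. The KO libraries were all above the control libraries, and the log2 fold change was 1.25 (SE 0.181, adjusted p = 0.000350, edgeR), or 2.38-fold. The spread was wider in KO tumours (26.3 ± 6.95 CPM, SD, n = 4) than in control tumours (11.0 ± 1.03 CPM, n = 4). Striated muscle markers, which include the synemin partner desmin, were low in culture. Only ACTA1 (mean 0.260 CPM) passed the filter on low counts there, and desmin did not. Summed, the 6 markers were higher with doxycycline in the hairpin lines and not in EV. They summed to 0.130 to 0.172 CPM in shAMB DMSO and 0.717 to 1.12 CPM in shAMB doxycycline libraries, 0.196 to 0.334 and 0.378 to 0.712 CPM in sh4, 0.202 to 0.342 and 0.112 to 0.275 CPM in EV, and 0.768 to 3.09 CPM in control and 2.11 to 3.83 CPM in KO tumours. MYH1 was at 0 in every culture group, CKM was at 0 in EV DMSO and sh4 doxycycline cells and MYLPF in EV doxycycline cells, all 6 markers were detected in both tumour groups, and the part of muscle-type transcripts in the SYNM difference was not tested.

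Of the genes for intermediate filaments and synemin partners, 7 of 18 changed in sh4 (2 higher, 5 lower), 14 in shAMB (5 higher, 9 lower) and 10 of 19 in xenografts (5 higher, 5 lower), against 40.9%, 66% and 41.1% of all genes. In sh4 the neuronal filament genes PRPH and INA fell by 0.67 and 0.60 while the astrocytic filament gene GFAP rose by 0.79 and dystrophin (DMD) by 0.44. In shAMB the cytolinker PLEC rose by 2.41, the focal adhesion gene ZYX by 1.68 and the actin crosslinker ACTN1 by 1.35, and the dystrophin homologue UTRN fell by 1.32. In KO xenografts ZYX rose by 1.42 and UTRN fell by 1.27, and the synemin partner VIM fell by 1.00. TTC23, whose nearer end lies 730 bases beyond SYNM on the other strand, had log2 fold changes of 0.23 in EV, 0.16 in sh4 (adjusted p = 0.0758) and -0.17 in shAMB (adjusted p = 0.0403), and in KO xenografts it fell by 0.47 (adjusted p = 0.0180).

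CDH6 fell in sh4 cells, in shAMB cells and in KO tumours, by 1.10 to 1.36 on the log2 scale, and was lower in EV. The EV libraries had 3.92, 2.91 and 2.88 CPM with DMSO and 1.55, 1.86 and 1.68 CPM with doxycycline. In sh4 the levels were 3.84, 3.91 and 4.58 CPM against 2.08, 1.99 and 1.67 CPM, and in shAMB they were 3.15, 3.40 and 3.74 CPM against 1.46, 1.29 and 1.27 CPM. No doxycycline library of any line reached the lowest DMSO library, 2.88 CPM in EV, but the separation within EV chose the gene. In sh4 CDH6 fell by 1.10 (SE 0.138, adjusted p = 1.1e-05, edgeR) and by 1.36 in shAMB (SE 0.144, adjusted p = 7.1e-07), or to levels 2.14-fold and 2.56-fold lower on the linear scale.

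In xenografts CDH6 had 4.55, 4.40, 3.53 and 4.42 CPM in control and 1.97, 2.16, 1.95 and 1.81 CPM in KO libraries. The groups were apart, and CDH6 fell by 1.10 (SE 0.165, adjusted p = 0.000455, edgeR), or 2.14-fold. Beside it, the summed fibroblast markers overlapped between tumour groups (15.5 to 27.1 CPM in control, 19.9 to 32.1 CPM in KO, no marker at 0 in all libraries of a group) and the summed Schwann cell markers were lower in KO (3.79 to 4.34 CPM) than in control (6.06 to 9.20 CPM), and the part of other cells in the difference was not tested.

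Among other classical cadherins and catenins, 5 of 17 changed in sh4 (2 higher, 3 lower), 12 in shAMB (7 higher, 5 lower) and 9 of 16 in xenografts (5 higher, 4 lower), against 40.9%, 66% and 41.1% of all genes. The cadherin partner CTNNB1 fell by 0.92 in sh4, where the neural cadherin CDH2 fell by 0.60 and CDH11 rose by 0.63. In shAMB the type II cadherins CDH18 and CDH10 fell by 1.50 and 1.01 and the retinal cadherin CDH4 rose by 1.57. In KO xenografts CDH7, CDH10 and CDH18 fell by 1.61, 1.41 and 1.27, and CDH4 rose by 1.26. The median of the list was 0.002 (EV), -0.06 (sh4), 0.16 (shAMB) and 0.05 (xenografts).

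PHACTR2 was the gene of the 5 that took opposite directions. EV libraries had 2.12, 1.73 and 1.67 CPM with DMSO and 1.20, 1.11 and 0.898 CPM with doxycycline. In sh4 the DMSO libraries had 1.98, 2.01 and 1.66 CPM and the doxycycline libraries 4.27, 4.30 and 4.37 CPM. PHACTR2 rose in sh4 by 1.19 (SE 0.116, adjusted p = 7.2e-07, edgeR), or 2.28-fold, from a DMSO level that overlapped that of EV.

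In shAMB PHACTR2 had 2.49, 2.55 and 2.35 CPM with DMSO and 2.89, 2.78 and 2.84 CPM with doxycycline. The libraries did not overlap, yet the log2 fold change of 0.20 did not pass the test (SE 0.117, 95% confidence interval -0.05 to 0.45, adjusted p = 0.138, edgeR). It was 0.31 (adjusted p = 0.0293, limma) on log2(TPM + 0.1). In xenografts the control libraries had 2.37, 1.67, 1.36 and 1.56 CPM and the KO libraries 0.854, 0.739, 1.03 and 1.25 CPM, and PHACTR2 fell by 0.84 (SE 0.253, adjusted p = 0.0211), or 1.79-fold. The tumour call was lost without control replicate 1 (-0.70, adjusted p = 0.0559) and without KO replicate 2 (-0.74, adjusted p = 0.0686). On log2(TPM + 0.1) the tumour difference was -0.35 (adjusted p = 0.283, limma). There the control libraries had 0.06 to 0.13 TPM and the KO libraries 0.04 to 0.05 TPM, so the added 0.1 shrinks the difference. The counts behind the tumour call were low, 42 to 66 in KO libraries. Fibroblast markers, in which 3 of 4 tested genes rose and 1 fell in sh4, summed to 43.1 to 52.4 CPM in sh4 DMSO and 68.2 to 86.9 CPM in sh4 doxycycline libraries. In shAMB, where 1 rose and 2 fell, they summed to 47.9 to 56.3 CPM with DMSO and to 34.5 to 41.2 CPM with doxycycline. In EV, where COL1A2 was at 0, the sums were 44.1 to 51.0 and 42.2 to 45.1 CPM. The part of these markers in the PHACTR2 difference was not tested.

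In the list of PHACTR proteins, protein phosphatase 1 subunits and the actin and MRTF pathway, 6 of 17 genes changed in sh4 (4 higher, 2 lower), 12 in shAMB (7 higher, 5 lower) and 7 of 16 in xenografts (3 higher, 4 lower), against 40.9%, 66% and 41.1% of all genes. In sh4 the smooth muscle calponin CNN1 rose by 1.42, CYR61 by 0.73 and tropomyosin TPM1 by 0.46, and the phosphatase subunit PPP1CC fell by 0.67. In shAMB TPM1 fell by 1.27 and PPP1CC by 0.68, whereas CNN1 rose by 0.80 and the MRTF gene MKL1 by 0.76. In KO xenografts TPM1 fell by 1.36 and PPP1CC by 0.58, and CNN1 rose by 0.87. The median of the list was 0.02 (EV), 0.06 (sh4), 0.10 (shAMB) and 0.04 (xenografts). Of the flanking genes of PHACTR2, LTV1 had -0.08 in EV, rose by 0.31 in sh4 (adjusted p = 0.00301) and had -0.01 in shAMB (adjusted p = 0.897) and 0.16 in xenografts (adjusted p = 0.244), and FUCA2 was too low to be tested in culture.

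CWC27 fell in sh4 cells, in shAMB cells and in KO tumours, and was lower in EV. EV libraries had 160, 154 and 142 CPM with DMSO and 89.3, 91.0 and 93.0 CPM with doxycycline. The sh4 libraries had 127, 142 and 147 CPM against 97.8, 90.6 and 80.1 CPM, and the shAMB libraries 163, 165 and 159 CPM against 116, 114 and 103 CPM. All 9 doxycycline libraries lay below all 9 DMSO libraries of the culture, but the separation within EV chose the gene. CWC27 fell by 0.63 in sh4 (SE 0.0707, adjusted p = 3.4e-06, edgeR) and by 0.55 in shAMB (SE 0.0705, adjusted p = 5.2e-06), or 1.55-fold and 1.47-fold lower.

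In xenografts CWC27 had 121, 87.5, 103 and 104 CPM in control and 75.2, 81.2, 84.6 and 91.5 CPM in KO libraries, which overlapped. It fell by 0.33 (SE 0.107, adjusted p = 0.0314, edgeR), from 104 ± 13.9 to 83.1 ± 6.79 CPM (SD, n = 4 each). This call was not stable, since the adjusted p was 0.0541 without control replicate 1, 0.0596 without control replicate 3, 0.0653 without control replicate 4, 0.0581 without KO replicate 1 and 0.0828 without KO replicate 2, with log2 fold changes of -0.33 to -0.28 in these settings. On log2(TPM + 0.1) the difference was -0.28 (adjusted p = 0.697, limma).

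The partner gene at the CWC27 start region is SREK1IP1, whose product binds a splicing factor. SREK1IP1 had 98.7, 96.4 and 88.9 CPM in EV DMSO and 73.0, 72.7 and 73.9 CPM in EV doxycycline libraries, with a log2 fold change of -0.37, by which it was among the 14 genes. In sh4 it had 83.6, 88.2 and 90.5 CPM against 90.9, 88.4 and 79.2 CPM (-0.02, adjusted p = 0.810, edgeR). In shAMB it fell by 0.15 (adjusted p = 0.0392), with overlapping libraries, and in xenografts the difference was 0.01 (adjusted p = 0.947). ADAMTS6, beyond the other end of CWC27, had -0.06 in EV and rose by 0.97 in sh4 (adjusted p = 1.2e-05).

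Of 27 spliceosomal cyclophilins and CWC factors other than CWC27, 9 changed in sh4 (6 higher, 3 lower), 17 in shAMB (7 higher, 10 lower) and 13 in xenografts (4 higher, 9 lower), against 40.9%, 66% and 41.1% of all genes. In sh4 the step 2 splicing factor CDC40 rose by 0.36 and the cyclophilin PPWD1 by 0.29, and the exon junction helicase EIF4A3 fell by 0.29. In shAMB XAB2 and RNF113A rose by 1.90 and 1.39, and the cyclophilin PPIE and the factor CWC15 fell by 0.91 and 0.72. In KO xenografts PPIE, PPIH and ISY1 fell by 0.84, 0.70 and 0.56, and RNF113A rose by 0.72. The median of the list was -0.003 (EV), 0.05 (sh4), -0.0003 (shAMB) and 0.04 (xenografts).

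**Figure D3:**
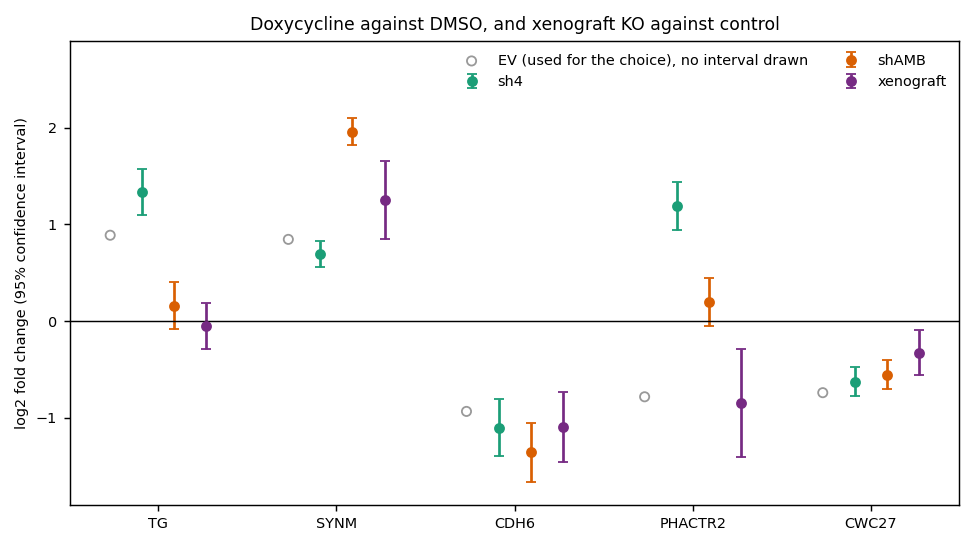
Log2 fold change (vertical axis) of the 5 genes (horizontal axis) for doxycycline against DMSO in sh4 and shAMB and for KO against control xenografts, with bars for 95% confidence intervals. Open circles give the EV values that chose the genes, without an interval. CDH6 and CWC27 lie below 0 throughout, SYNM lies above 0 throughout, and PHACTR2 and TG differ between the lines.

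Counted together, 5 of the 5 genes changed in sh4 (3 higher, 2 lower), where 40.9% of all genes did (22.9% higher, 18% lower). In shAMB 3 of 5 changed (1 higher, 2 lower), where 66% did (37.6% higher, 28.4% lower), and in xenografts 4 of 5 changed (1 higher, 3 lower), where 41.1% did (21.2% higher, 19.9% lower). Libraries of the groups did not overlap for 5 of 5 genes in sh4, 4 of 5 in shAMB and 3 of 5 in xenografts, against 41.3%, 73.4% and 36.7% of all genes. With so many genes changed in the hairpin lines, a change of any gene there is common. For each line the comparison with DMSO used that line's own group means, with the spread estimated over all culture libraries, EV included. Set beside the EV values, and without a test because EV chose the genes, the sh4 log2 fold change minus the EV one was 0.45 for TG, -0.15 for SYNM, -0.17 for CDH6, 1.97 for PHACTR2 and 0.11 for CWC27. The shAMB value minus the EV one was -0.73 for TG, 1.11 for SYNM, -0.42 for CDH6, 0.99 for PHACTR2 and 0.19 for CWC27.

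The difference between the hairpin lines used no EV group mean and was tested. The EV libraries did share in the fit that estimated the spread, so this test is not fully independent of the choice. The shAMB effect was lower than the sh4 effect by 1.17 for TG (SE 0.160, adjusted p = 1.6e-05, edgeR) and by 0.99 for PHACTR2 (SE 0.165, adjusted p = 0.000113), and higher by 1.26 for SYNM (SE 0.0898, adjusted p = 1.5e-08). For CDH6 the difference was -0.26 (95% confidence interval -0.68 to 0.17, adjusted p = 0.274) and for CWC27 it was 0.08 (95% confidence interval -0.14 to 0.29, adjusted p = 0.526). The CWC27 difference was 0.20 (adjusted p = 0.00977) with GC and length trends removed. Across all genes 60.9% differed between the hairpin lines, so 3 of the 5 is close to the background.

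Some of the genes also differed between the lines before induction. Uninduced shAMB was lower than uninduced sh4 by 0.44 for TG (adjusted p = 0.0261, edgeR), and higher by 0.38 for PHACTR2 (adjusted p = 0.0292) and by 0.23 for CWC27 (adjusted p = 0.0276), with differences of 0.04 for SYNM (adjusted p = 0.657) and -0.26 for CDH6 (adjusted p = 0.130). In this comparison 36.5% of all genes, 5445, passed the test, but this rested on single libraries, since the count was 77 without sh4 DMSO replicate 1, 244 without sh4 DMSO replicate 2, 277 without shAMB DMSO replicate 1 and 95 without shAMB DMSO replicate 2, and none of the 5 genes passed in these settings. Without sh4 DMSO replicate 3, PHACTR2 did not pass (adjusted p = 0.0655). With GC and length trends removed TG, PHACTR2 and CWC27 did not pass (adjusted p = 0.251, 0.169 and 0.128), whereas SYNM (0.21, adjusted p = 0.0261) and CDH6 (-0.39, adjusted p = 0.0170) did.

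Over the 18 culture libraries, which share lines and drug, Pearson's r of log2 CPM was -0.883 between SYNM and CDH6, -0.819 between TG and CWC27 and 0.791 between CDH6 and CWC27. The other 7 pairs lay between -0.586 and 0.218. The 18 libraries include the EV libraries that chose the genes, so these values are partly set by the choice. Among 12709 genes the one most like CWC27 was DNAJC6 (r = 0.972), which encodes the clathrin-uncoating protein auxilin, followed by UQCRFS1 (r = 0.924), the Rieske iron-sulfur subunit of respiratory complex III, and FBXO7 (r = 0.901). Over the 8 xenograft libraries, which were not used to choose them, r with CWC27 was 0.953 for DNAJC6, 0.940 for UQCRFS1 and 0.0799 for FBXO7. These values are descriptions, and libraries of one group are not independent points.

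The genes most like the others held up unevenly in the xenografts. For SYNM they were DQX1 (r = 0.957 in culture, 0.679 in xenografts), CDHR1 (0.954 and 0.942) and KIAA1324 (0.947 and 0.929). For CDH6 they were TMEM100 (0.926 and -0.849), SOSTDC1 (0.923 and 0.913) and PRICKLE1 (0.884 and 0.743). For TG they were NCAPD2 (0.922 and 0.294), JADE2 (0.900 and -0.193) and NFATC2IP (0.898 and 0.422). For PHACTR2 they were the transcription factor gene ETV1 (0.937 and -0.695), CYP1B1 (0.921 and -0.703) and SEMA6D (0.916 and -0.608), all of opposite sign in tumours.

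**Figure D4:**
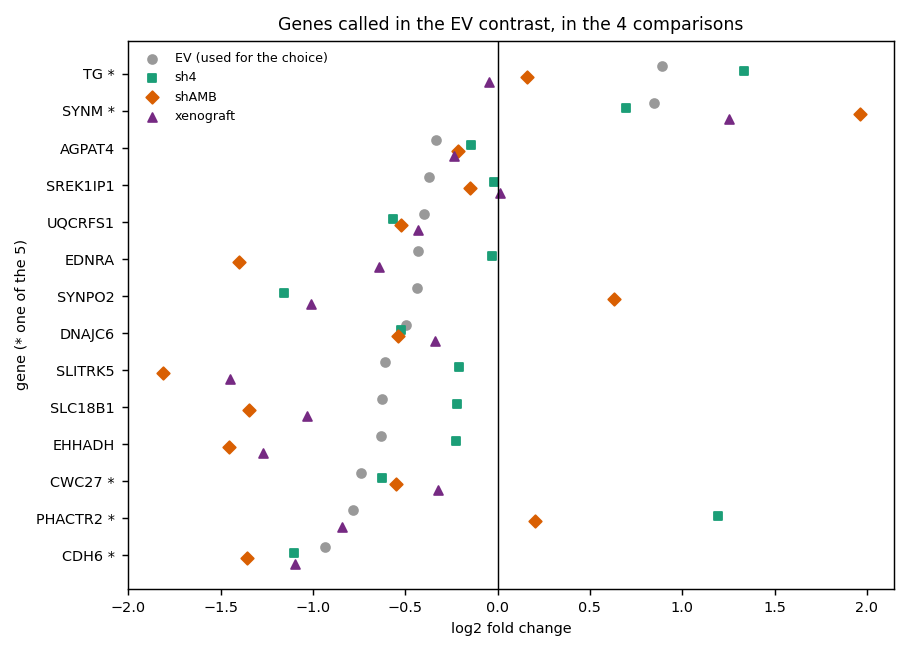
Log2 fold change (horizontal axis) of the 14 genes that passed the test in EV (vertical axis, the 5 genes marked with an asterisk) in EV, sh4, shAMB and xenografts. CWC27, DNAJC6 and UQCRFS1 lie between -0.74 and -0.33 in all 4 comparisons, while SLITRK5, SLC18B1 and EHHADH are lower by more in shAMB than in EV.

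DNAJC6 and UQCRFS1 were themselves among the 14 genes that passed the test in EV. In EV their log2 fold changes were -0.50 and -0.40. DNAJC6 fell by 0.52 in sh4 (adjusted p = 8.0e-07, edgeR), by 0.54 in shAMB (adjusted p = 2.2e-07) and by 0.34 in KO xenografts (adjusted p = 0.0169), and UQCRFS1 fell by 0.57 (adjusted p = 4.6e-06), 0.52 (adjusted p = 4.6e-06) and 0.43 (adjusted p = 0.00659). Of the 9 other genes of the 14, all lower in EV, 6 fell in sh4, 8 fell and 1 rose in shAMB, and 6 fell in KO xenografts. Over all genes 18% fell in sh4, 28.4% in shAMB and 19.9% in xenografts. The neuronal adhesion gene SLITRK5 fell by 0.21, 1.81 and 1.45, the vesicular transporter gene SLC18B1 by 0.22, 1.35 and 1.03, and the peroxisomal enzyme gene EHHADH had -0.23 (adjusted p = 0.0925), -1.46 and -1.27. SYNPO2, an actin-binding gene, fell by 1.16 in sh4 and by 1.01 in xenografts and rose by 0.63 in shAMB, and the endothelin receptor gene EDNRA had -0.03 in sh4 (adjusted p = 0.740), fell by 1.40 in shAMB and had -0.64 in xenografts (adjusted p = 0.0986). AGPAT4, a lipid acyltransferase gene, fell by 0.14 and 0.21 in sh4 and shAMB and had -0.24 in xenografts (adjusted p = 0.0889).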

How the data were processed

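RNA was sequenced in 18 culture and 8 xenograft libraries of KELLY cells. The labels name a stranded total RNA kit and also polyA RNA. Per the submitters' processing notes the tools were STAR, SAMtools and RSEM on hg38. The methods of the study name STAR, SAMtools and RSEM with versions for RNA of mouse ganglia, and for the KELLY libraries the versions, the annotation and the use of strand are not given in the sources used here. The authors deposited RSEM expected counts, which are estimated counts and may hold fractions, and TPM scaled for gene length. Of the expected counts, 91.8% in culture and 91.0% in xenografts were whole numbers. No column of per-sample values was left unused (0 columns).

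Expected counts were rounded and fitted in R 4.3.3 with edgeR 4.0.16 after filterByExpr (14905 and 15960 genes tested) and TMM scaling (factors of 0.974 to 1.07 and 0.936 to 1.09). The quasi-likelihood test (glmQLFit, glmQLFTest, two-sided) was run with Benjamini-Hochberg adjustment over all genes, and a gene with adjusted p under 0.05 is called changed. All culture libraries shared 1 fit with a mean per group. The xenografts were fitted alone. On simulated data the fit recovered 33% of genes changed by 0.5 and 98% of genes changed by 1 on the log2 scale in sh4, and 42% and 99% in xenografts. The simulation gave both sets the same spread and changed no gene of low mean count. In the data the biological coefficient of variation was 0.115 in culture and 0.186 in xenografts. Recovery in the data, in tumours above all, may therefore differ. Alternatives were RLE factors, no filter, DESeq2 1.42.0, a replicate block, the compared groups alone, limma 3.58.1 on log2(TPM + 0.1), a minimum log2 change of 1, leaving out each library and, added after seeing the data, removal of GC and length trends.

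The 5 genes and all lists were chosen with earlier results of these data known. Besides the 5, the text names RUNX1T1, genes called in EV, adjacent or overlapping genes, the 3 genes with the highest r to each of the 5 and, from each hand-written list, at most 4 changed genes per comparison with the largest fold and a mean of at least 1 CPM. Intervals from the fit cover the spread between libraries only. Values of some single list genes are not reported here.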

Additional observations from a re-analysis of the deposited data

Results flagged for a closer look

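CDH6 in the control xenografts held a library apart from the others. Control replicate 3 had 3.53 CPM against 4.40 to 4.55 CPM in the other control libraries, and the gap took 0.860 of the range of the group. Of 10 such groups examined for the 5 genes, chance flags about 5%. Replicate 3 was the control library nearest to the KO libraries (1.81 to 2.16 CPM) but lay above all of them. CDH6 fell by 1.06 to 1.18 on the log2 scale whichever xenograft library was left out.

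The effect of doxycycline differed between the hairpin lines for 3 genes by a test of the difference itself, edgeR's quasi-likelihood test. The shAMB minus sh4 difference was -1.17 for TG, 1.26 for SYNM and -0.99 for PHACTR2. It kept its sign and its side of the threshold in every setting that left out 1 library.

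For PHACTR2 every doxycycline library lay above every DMSO library in both hairpin lines, while the reverse held in EV, where that separation chose the gene. PHACTR2 rose by 1.19 on the log2 scale in sh4, and its value of 0.20 in shAMB did not pass edgeR's test (adjusted p = 0.138), beside -0.78 in EV, and the difference from EV was not tested.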

How the results depend on the processing

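Outside the EV contrast, the 5 genes had 385 values under the alternatives, of which 339 kept direction and side of the threshold, 37 lost the call, 5 gained one and 4 changed sign. The changes of sign were the shAMB effect of TG with GC and length trends removed (-0.25), the shAMB minus sh4 difference of CWC27 without sh4 doxycycline replicate 3 (-0.031, with 0.141 as the highest value when 1 library was left out), the uninduced difference of SYNM without sh4 DMSO replicate 2 (-0.0048, highest 0.060) and the tumour difference of TG without KO replicate 2 (0.020, lowest -0.109). RLE factors moved the median of all genes most in shAMB, by -0.0746 on the log2 scale. Requiring a log2 change of at least 1 left 0 genes in EV, 750 in sh4 with 3 of the 5 genes, 2662 in shAMB, 3226 in the difference of the hairpin lines, 569 in the uninduced comparison with 0 of the 5, and 2002 in xenografts with 2 of the 5, by the construction of that setting. Fitting only the compared groups gave 6 genes in EV and 3727 in sh4 instead of 14 and 6091. Removing GC and length trends gave 57 genes in EV, and 3239 in the uninduced comparison with 52.2% higher instead of 38.6%. On log2(TPM + 0.1) with limma, 5 of the 5 passed in shAMB and 2 of the 5 in xenografts, where 2128 instead of 6555 genes passed, and the share of higher calls was 80.4% instead of 56.0% in sh4, 72.9% instead of 56.9% in shAMB and 72.7% instead of 51.6% in xenografts. The cause of these changes was not tested. Leaving out 1 library gave 7 to 14 genes in EV, 77 to 6492 genes and 0 to 3 of the 5 in the uninduced comparison, and 2 to 4 of the 5 in xenografts.

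Replicate numbers did not pair the libraries, with correlations of same-numbered libraries from -0.806 to 0.429. With a replicate block 2 of the 5 genes passed in xenografts instead of 4, as PHACTR2 had an adjusted p of 0.0588 and CWC27 of 0.0860, and no other call of the 5 changed. The low counts of PHACTR2 and CDH6 limit their precision.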

Other observations

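Genes of the ATF4 response, which includes amino acid synthesis and transport genes and is known to follow disturbed mitochondrial translation, were examined beside the 5 genes. In EV 0 of 19 passed edgeR's test or DESeq2 and 4 of 19 had an unadjusted p under 0.05, with a median log2 fold change of 0.20 beside 0.01 over all genes tested. Over all genes in EV, 879 (5.9%) had an unadjusted p under 0.05. In sh4 10 of 19 changed (8 higher, 2 lower), with CHAC1 higher by 0.90 and the asparagine synthetase gene ASNS by 0.56, and PCK2 had -0.92. In shAMB 15 of 19 changed (8 higher, 7 lower), where the serine synthesis gene PHGDH had -2.19 and CHAC1 was higher by 1.39. In KO xenografts 7 of 18 changed (3 higher, 4 lower), where PHGDH had -2.31 and CHAC1 was higher by 1.42. The shares of all genes that changed were 40.9% in sh4, 66% in shAMB and 41.1% in xenografts. None of the 13 protein-coding genes of the mitochondrial genome was among the genes tested, so they are not analysed here.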
